A study of Mus musculus with 4 samples.

Results

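The 10 genes described here, Acta2, Tagln, Col3a1, Fn1, S100a6, Vim, Cdh2, Zeb1, Zeb2 and Snai1, are those commonly read as signs of a mesenchymal transition. They were taken by symbol from the 32285 genes of a single-cell RNA count matrix of mouse lung endothelium. In such a transition an endothelial cell loosens its junctions and takes on contractile filaments, interstitial matrix and a motile shape, and transforming growth factor beta is its best known inducer. SNAIL and ZEB transcription factors repress junction genes during it, alpha smooth muscle actin and transgelin are the contractile readouts, and type III collagen and fibronectin are the matrix readouts. Several of these genes are also part of normal vessel biology: vimentin is the ordinary intermediate filament of endothelium, and large-vessel and lymphatic endothelium make fibronectin.

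Each group of mice was sampled as 1 library: wild-type mice after a sham operation (sham), wild-type mice on day 7 after pneumonectomy (WT PNX), and 2 conditional knockout lines, M3cKO and Foxo1cKO, also on day 7 after pneumonectomy. Pneumonectomy (PNX) is the surgical removal of part of the lung, after which the remaining lung grows. The title of the study concerns Rhoj, an endothelial small GTPase, in lung regeneration. The sources used here do not give the gene behind the name M3, the Cre driver, the mice's age or how many animals went into a library. Lung cells were freed with collagenase, depleted of CD45-positive cells and selected for CD31 on magnetic beads before droplet sequencing.

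A cell was counted as endothelial if it had at least 500 genes, at most 10% mitochondrial UMIs (unique molecular identifiers, 1 per captured transcript), at least 2 UMIs over Pecam1, Cdh5, Cldn5, Egfl7, Ramp2 and Tie1, and 0 UMIs of Ptprc, Epcam, Col1a1 and Col1a2. This left 14854 cells, 4665 from the sham library, 3887 from WT PNX, 2491 from M3cKO PNX and 3811 from the Foxo1cKO PNX library, with 6492399 to 13691550 UMIs per library and median depths of 1841, 2640, 2070 and 2474 UMIs per cell. Levels are UMIs per 1000000 endothelial UMIs of the library (CPM), with exact 95% Poisson intervals, and ratios carry exact conditional binomial intervals. With 1 library per group there is no test: both kinds of interval cover counting error only, and mouse-to-mouse and library-to-library variation is not measured. A gene is called higher or lower where 2 libraries are at least 1.5-fold apart and the higher one reaches 10 CPM.

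Several facts of the libraries bear on what follows. Foxo1 itself was at 70.1 CPM in the Foxo1cKO PNX library and between 185 and 208 CPM in the other 3, while the M3cKO label could not be checked in this way. Xist, the RNA of the inactive X chromosome, was at 0 CPM in the sham and M3cKO PNX libraries and at 132 and 154 CPM in WT PNX and Foxo1cKO PNX, so both the sham and the M3cKO contrast with WT PNX also set libraries without Xist against one with it. Between 93 and 155 endothelial cells per library had a barcode found in another library too. Clustering without the 10 genes gave 17 clusters, of which 11 were endothelial, and 887 of the 14854 cells, 5.97%, fell into the 6 clusters led by markers of epithelial, B, T or NK, myeloid cells or platelets. Endothelial classes below are clusters named by marker genes and carry the ending "-like". An unnamed cluster of 2617 cells had 5 general capillary markers among its leading genes, as many as the cluster of 2569 cells given that name. General capillary values below therefore cover only part of such cells.

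The promoters of 6 of the 10 genes were found in RefSeq's table for GRCm38.p6, and 2 are printed because each holds a motif tied to the gene's regulation in textbook accounts. The Acta2 promoter is shown for its CArG-type elements, the docking words of serum response factor, which drives contractile genes. The Snai1 promoter is shown for CACCTG, the E-box word that SNAIL and ZEB proteins bind. Each window is the 250 bases before the RefSeq start site, 5′ to 3′ on the gene's own strand, with the matched words in capitals. The Acta2 window is chr19:34255374-34255623 on the minus strand and the Snai1 window is chr2:167537945-167538194 on the plus strand. The gene coordinates given below come from another annotation, in which Acta2 begins at 34255590, so most of its window lies inside that gene span.
Acta2: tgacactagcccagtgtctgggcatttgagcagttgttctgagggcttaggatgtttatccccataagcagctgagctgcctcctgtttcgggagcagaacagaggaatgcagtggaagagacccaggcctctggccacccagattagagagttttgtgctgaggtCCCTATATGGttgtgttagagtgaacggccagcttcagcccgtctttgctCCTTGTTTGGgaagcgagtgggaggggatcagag
Snai1: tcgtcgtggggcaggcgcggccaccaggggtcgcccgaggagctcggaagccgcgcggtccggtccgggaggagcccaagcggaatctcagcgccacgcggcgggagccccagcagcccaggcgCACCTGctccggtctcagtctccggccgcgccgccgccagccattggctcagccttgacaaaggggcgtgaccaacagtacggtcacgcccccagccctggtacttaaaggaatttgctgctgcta

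The capitals in Acta2 are CArG boxes with 1 G or C inside the A/T core, 84 and 34 bases before the RefSeq start. Acta2 alone of the 6 genes had such a word, searched on both strands in windows of 300 bases (250 before and 50 after the start), and 9.98% of 32851 RefSeq windows held one. A CArG box without mismatch was in none of the 6 genes and in 1.63% of all windows. CACCTG, searched on both strands and so including CAGGTG, was in Snai1 alone, 126 bases before the start, and in 20.2% of all windows. These words are letters in a window: whether a factor sits on them was not measured here.

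In WT PNX endothelium, 5 of the 8 measured members (at least 10 CPM in 1 of the 2 libraries) were called higher than in sham and 0 lower: the contractile genes Acta2 and Tagln, the matrix genes Col3a1 and Fn1, and S100a6. Among all 9132 genes measured in this contrast, 11.3% were called higher and 6.98% lower. The members were chosen with earlier results of these data known, so setting their counts beside these shares is no test. The Acta2 and Tagln calls rest on 1 WT PNX cell, and without it 3 members were higher. In M3cKO PNX against WT PNX, 6 of 9 measured members were called lower (Acta2, Tagln, Col3a1, Fn1, S100a6 and Zeb2) and 0 higher, where 14.4% of 9089 genes were lower and 6.37% higher. In Foxo1cKO PNX against WT PNX, Col3a1 was called higher and Tagln lower (0 lower without that cell) among 9 measured members, where 1.09% of 9052 genes were higher and 1.39% lower. The median log2 ratio of the measured members was 0.77, -0.93 and -0.09 in the 3 contrasts, and that of all measured genes was 0.05, -0.14 and -0.01. All 3 contrasts use the WT PNX library, so a value particular to that library enters each of them.

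**Figure D1:**
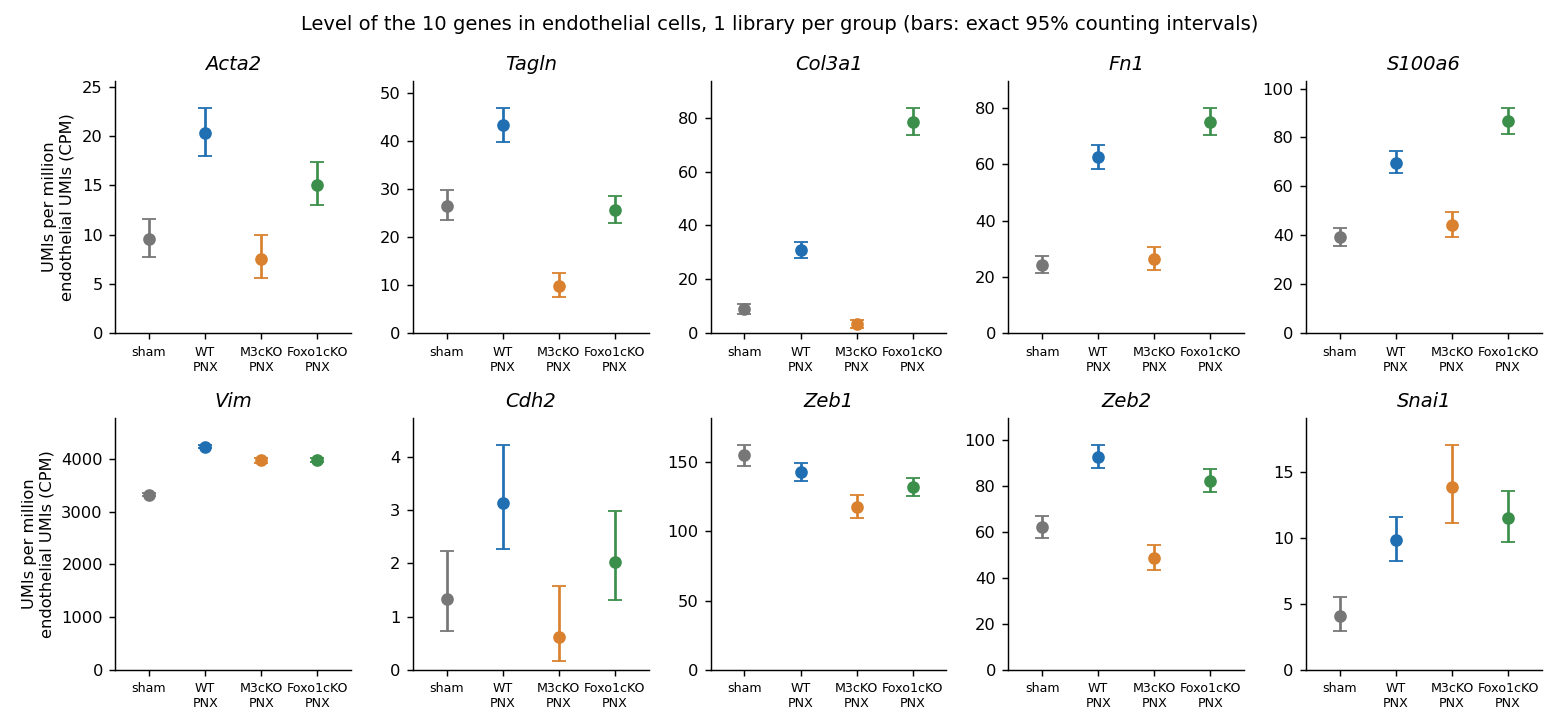
Level of each of the 10 genes (CPM) in the endothelial cells of the 4 libraries, 1 panel per gene, with exact 95% Poisson intervals as error bars (counting error only). Col3a1 shows the widest fold spread between libraries, from 3.23 to 78.6 CPM, while Zeb1 and Vim stay within narrow ranges.

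Acta2 (ENSMUSG00000035783, chromosome 19, 34241090 to 34255590, minus strand, GRCm38) encodes alpha smooth muscle actin, the actin of smooth muscle and myofibroblasts. Its level was 9.53 CPM (7.75 to 11.6) for sham, 20.3 (18 to 22.8) for WT PNX, 7.55 (5.58 to 9.98) for M3cKO PNX and 15.1 (13 to 17.4) for Foxo1cKO PNX. The WT PNX library was the highest and the sham and M3cKO PNX intervals overlapped. WT PNX exceeded sham 2.13-fold (1.69 to 2.71), and the gene was 2.69-fold lower (1.98 to 3.72) in M3cKO PNX than in WT PNX. Few cells carried it: 0.793%, 1.88%, 0.482% and 2.07% of endothelial cells had an Acta2 UMI. A single WT PNX cell of 19715 UMIs, in the proliferating-like class, held 112 Acta2 UMIs, 40.3% of that library's 278. Without that cell WT PNX was at 12.1 CPM (10.4 to 14.1), below Foxo1cKO PNX. It was then 1.27-fold (0.988 to 1.65) above sham, which ends the call, and 1.61-fold (1.16 to 2.26) above M3cKO PNX. The M3cKO PNX contrast of Acta2 loses its call with cells holding a mural UMI left out (-0.58), in thinned cells (log2 ratio -0.23), in male-type cells alone (-0.07; Xist absent, a Y-linked gene detected) and with classes weighted to the WT PNX proportions (-0.41).

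By class, Acta2 was an arterial-like transcript. Arterial endothelium was at 125, 118, 239 and 115 CPM, with the sham library first, then WT PNX, M3cKO and Foxo1cKO, here and below. The M3cKO PNX value rests on 42 UMIs, of which 24 came from 1 cell. Venous-like cells were at 31.9 CPM in sham, where 1 cell held 12 of their 32 UMIs, and at 4.67 in WT PNX. Lymphatic-like cells had 0 Acta2 UMIs in every library, and general capillary-like cells were at 0 to 5.32 CPM. Arterial-like cells were under 1.5-fold apart between sham and WT PNX. Of the 278 WT PNX UMIs, 144 lay in the proliferating-like class, at 86.8 CPM, of which 112 were from the single cell above. Without it the class was at 19.5 CPM (13.3 to 27.5). Sham had 0, in only 26 proliferating-like cells.

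Tagln (ENSMUSG00000032085, chromosome 9, 45929619 to 45936058, minus strand), which encodes the actin-binding protein transgelin, overlaps Pcsk7 on the other strand. It was at 26.5 CPM (23.5 to 29.8) for sham, 43.2 (39.8 to 46.9) for WT PNX, 9.86 (7.59 to 12.6) for M3cKO PNX and 25.6 (22.9 to 28.6) for Foxo1cKO PNX. Sham and Foxo1cKO PNX overlapped, WT PNX stood above both and M3cKO PNX below all. The ratio of WT PNX to sham was 1.63 (1.41 to 1.89), M3cKO PNX was 4.39-fold lower (3.39 to 5.77) than WT PNX and Foxo1cKO PNX was 1.69-fold lower (1.47 to 1.94). Leaving out the same single cell, which held 74 Tagln UMIs, gave 1.43-fold (1.23 to 1.66) for WT PNX against sham and 1.48-fold (1.28 to 1.71) for WT PNX against Foxo1cKO PNX, which ends both calls. Of 16 alternatives, 8 kept the Tagln call of WT PNX against sham and 3 turned its sign. In the Foxo1cKO PNX library 1 systemic-type cell of 21749 UMIs held 82 Tagln UMIs, 25.9% of the total.

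Tagln belonged chiefly to systemic-type-like cells, the Col15a1- and Prnd-marked endothelium that resembles vessels of the systemic circulation. These cells held 59.4%, 62.8%, 20.3% and 62.0% of the libraries' Tagln UMIs. Their level was 807, 477, 47.1 and 205 CPM, from 165, 372, 13 and 196 UMIs. Within this class WT PNX was thus lower than sham, by 1.69-fold (1.40 to 2.04), and it was also lower in venous-like cells (50.8 against 8.83 CPM). The sham values rest on few cells: 5 of 74 systemic-type-like cells held 65.5% of the class's UMIs, against 46.2% in the top 5 of WT PNX. Cells with a UMI were 28.4% of the class in sham and 31.5% in WT PNX. Of the 51 sham venous-like UMIs, 21 came from 1 cell. The class made up 1.59% of sham cells and 3.76% of WT PNX cells. With class proportions set to those of WT PNX, the log2 ratio of WT PNX to sham for Tagln changed sign, to -0.52.

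**Figure D2:**
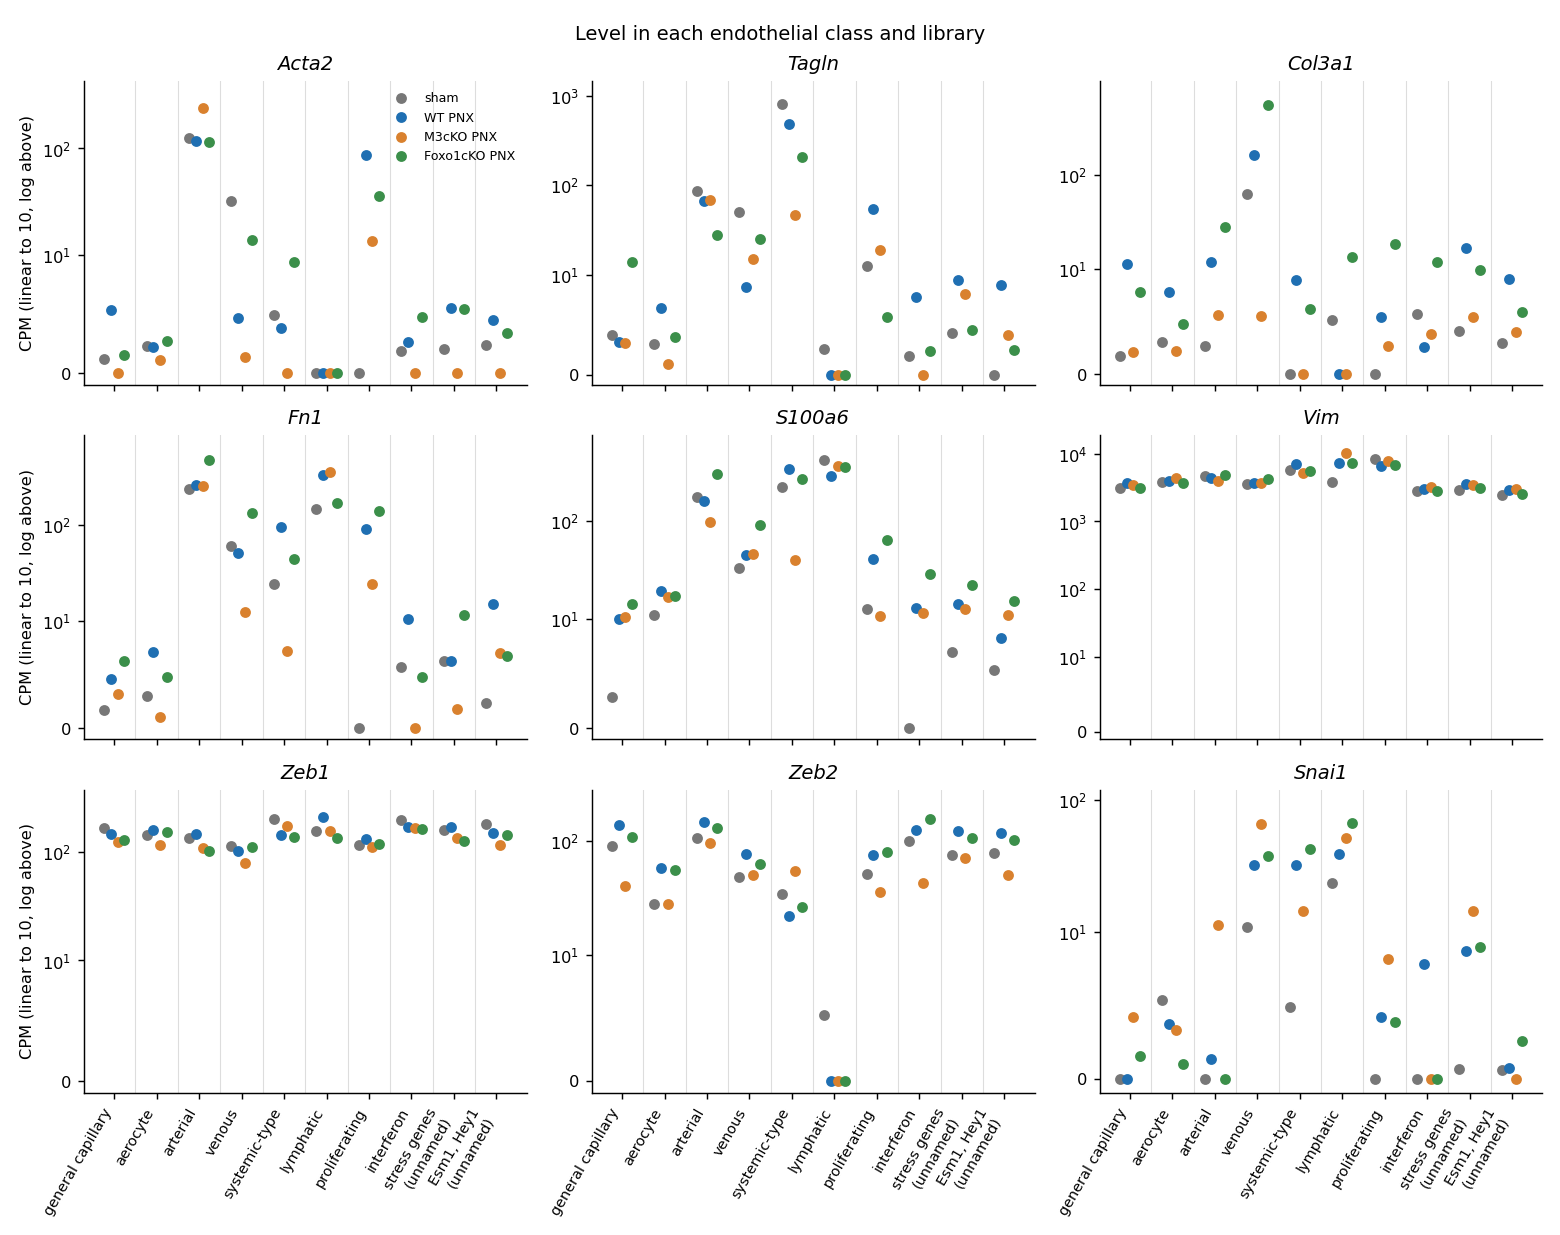
Level of 9 of the genes (all but Cdh2) in CPM, on an axis linear to 10 and logarithmic above, in the 10 endothelial classes; each point is 1 library, coloured by group, without error bars. Tagln is highest in systemic-type cells except in M3cKO PNX, Col3a1 in venous cells of 3 libraries, Acta2 in arterial cells and Fn1 in arterial and lymphatic cells, and Vim and Zeb1 are present in every class.

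Cells rich in contractile transcripts were rare in every library. Counting cells with at least 3 UMIs over Acta2 and Tagln together, from either gene or both, gave 31 sham cells (0.665%, exact binomial 0.452 to 0.942), 52 WT PNX cells (1.34%, 1.00 to 1.75), 10 M3cKO PNX cells (0.401%, 0.193 to 0.737) and 35 Foxo1cKO PNX cells (0.918%, 0.641 to 1.28). These intervals cover the counting of cells in 1 library each and do not compare conditions. With every cell thinned to 2000 UMIs the shares were 0.696%, 0.730%, 0.309% and 0.670%, from 14, 20, 4 and 17 cells, so the gap between WT PNX and sham was not seen at equal depth. These cells held 61.1% to 81.0% of all Acta2 and Tagln UMIs of their library. They were deeper than the others, with medians of 3253, 7056, 2974 and 5197 UMIs against 1838, 2611, 2065 and 2456.5. Of the WT PNX cells, 16 were arterial-like and 26 systemic-type-like, and 8 also had a UMI of Pdgfrb, Cspg4, Notch3, Myh11 or Des, mural genes, against 1, 0 and 2 cells of the sham, M3cKO and Foxo1cKO libraries. With every cell that had such a UMI left out, the log2 ratio of WT PNX to sham was 0.35 for Acta2 and 0.44 for Tagln, and neither was called.

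Col3a1 (ENSMUSG00000026043, chromosome 1, 45311538 to 45349706, plus strand) encodes the chain of type III collagen, the fibrillar collagen of reticular interstitial matrix. It was at 8.96 CPM (7.24 to 11) for sham, 30.7 (27.9 to 33.8) for WT PNX, 3.23 (2.00 to 4.94) for M3cKO PNX and 78.6 (73.7 to 83.7) for Foxo1cKO PNX. No 2 libraries overlapped, and the order was M3cKO PNX, sham, WT PNX, Foxo1cKO PNX. WT PNX was 3.43-fold higher (2.74 to 4.34) than sham, M3cKO PNX was 9.51-fold lower (6.14 to 15.5) than WT PNX and Foxo1cKO PNX was 2.56-fold higher (2.28 to 2.87). Both the sham and the M3cKO contrast kept their side of the 1.5-fold rule under all 16 alternatives run. The size of the M3cKO contrast did not hold: its log2 ratio of -3.25 became -0.62 when cells with Col1a1 or Col1a2 UMIs were let in. The 21 M3cKO PNX UMIs are also no more per UMI than in T and NK cells of that library (4.66 CPM), so the fold is one against background. B cells there were at 1.89 CPM, on 2 UMIs.

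Venous-like cells carried Col3a1 in all but 1 library. They held 67.0%, 73.4% and 88.8% of its UMIs in sham, WT PNX and Foxo1cKO PNX and 19.0% in M3cKO PNX, where the library had 21 in all. In that class the level was 62.8, 160.5, 5.53 and 540.2 CPM, from 63, 309, 4 and 861 UMIs. Cells with at least 1 UMI were 5.47%, 10.4%, 1.77% and 13.9% of venous-like cells, so the gene was seen in a minority of them everywhere. M3cKO PNX venous-like cells were 29.0-fold below those of WT PNX (11.2 to 107), on 4 UMIs and at the level seen in T and NK cells. In the other endothelial classes no library was above 27.9 CPM. At least 10 CPM in 1 of the 2 libraries was reached by 4 classes in each contrast. Of these, only venous-like cells reached it in both sham and WT PNX. General capillary-like cells, arterial-like cells and an unnamed cluster passed through WT PNX alone (11.3, 11.9 and 16.6 CPM, from 17, 9 and 21 UMIs). In the M3cKO PNX contrast all 4 passed through WT PNX alone. A class that passes so can only be higher in WT PNX, so the agreement of classes is no result.

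Fn1 (ENSMUSG00000026193, chromosome 1, 71585520 to 71653200, minus strand, overlapping Apol7d on the other strand) encodes fibronectin, an adhesive matrix protein that binds integrins. It was at 24.3 CPM (21.4 to 27.5) for sham, 62.6 (58.5 to 66.9) for WT PNX, 26.3 (22.5 to 30.6) for M3cKO PNX and 75.0 (70.2 to 80.0) for Foxo1cKO PNX. The sham and M3cKO PNX intervals overlapped, and the other 2 libraries were higher and apart from each other. WT PNX was 2.58-fold higher than sham (2.24 to 2.97) and M3cKO PNX 2.38-fold lower than WT PNX (2.01 to 2.82). Arterial-like cells were at 233, 257, 250 and 468 CPM and lymphatic-like cells at 146, 326, 349 and 169. Arterial-like cells of sham, WT PNX and M3cKO thus lay between 233 and 257 CPM, below Foxo1cKO. General capillary-like cells were at 1.74 to 6.27 CPM. In the WT PNX myeloid cluster, 163 UMIs from 18 cells made up 19.0% of that library's Fn1, and without the clusters of other cell types Fn1 was at 23.4, 53.6, 24.4 and 73.9 CPM.

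**Figure D3:**
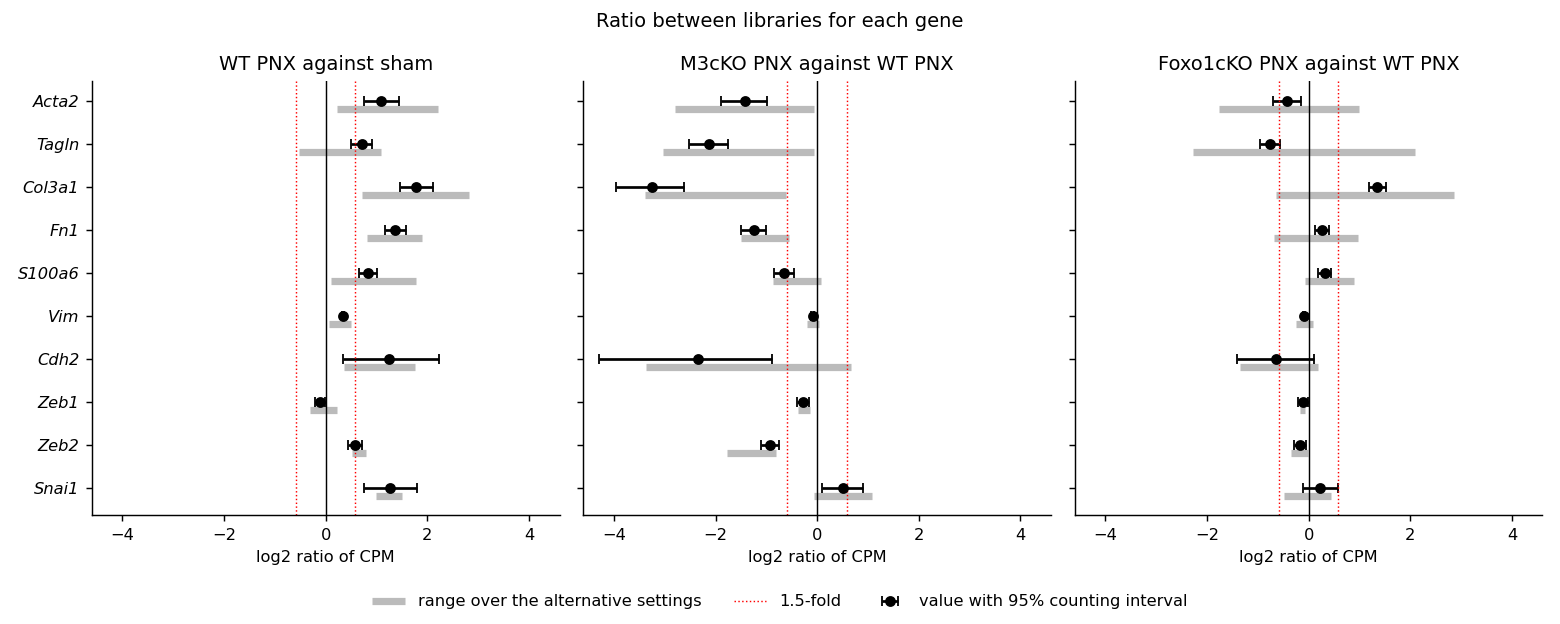
Log2 ratio of each gene in the 3 contrasts (CPM over CPM) with its 95% counting interval, a grey bar for the range over the alternative settings, and dotted lines at 1.5-fold in either direction. Col3a1 lies farthest from 0 in all 3 contrasts, and Zeb1 and Vim stay inside the dotted lines in each of them.

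S100a6 (ENSMUSG00000001025, chromosome 3, 90612882 to 90624181, plus strand) encodes calcyclin, a small calcium-binding protein. It was at 39.2 CPM (35.5 to 43.1) for sham, 69.7 (65.3 to 74.2) for WT PNX, 44.2 (39.2 to 49.6) for M3cKO PNX and 86.7 (81.5 to 92.0) for Foxo1cKO PNX. Sham and M3cKO PNX overlapped, and WT PNX and Foxo1cKO PNX were higher. The ratio of WT PNX to sham was 1.78 (1.58 to 2.00) and M3cKO PNX was 1.58-fold lower (1.38 to 1.8) than WT PNX. Lymphatic-like cells were at 413, 284, 359 and 357 CPM, arterial-like cells at 174, 159, 96.7 and 298, and systemic-type-like cells at 220, 337, 39.8 and 265, so the last were above lymphatic-like cells in WT PNX and low in M3cKO PNX. S100a6 was higher in blood cells than in endothelium in every library, with B cells at 110 to 421 CPM and T and NK cells at 206 to 638. The log2 ratio of WT PNX to sham was 0.41 after thinning every cell to 2000 UMIs and 0.095 in male-type cells alone, both under the 1.5-fold line. The M3cKO PNX contrast kept its call under 9 of 16 alternatives. It lost it, for instance, with TMM scaling factors (-0.53) and after thinning (-0.35), and changed sign under 2.

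Vim (ENSMUSG00000026728, chromosome 2, 13573927 to 13582826, plus strand), the vimentin filament gene, was abundant in every library. It was at 3326 CPM for sham, 4236 for WT PNX, 3976 for M3cKO PNX and 3987 for Foxo1cKO PNX, and 93.9% to 95.9% of endothelial cells had a UMI. The WT PNX library was highest and its interval (4201 to 4270.4) lay above the sham interval (3291 to 3361), but the ratio was 1.27, under the 1.5-fold rule, and no contrast called Vim. Its class levels ran from 2446 CPM in an unnamed cluster of sham cells to 10469 CPM in M3cKO PNX lymphatic-like cells, and proliferating-like cells were at 6638 to 8540 CPM. Nearly all sham cells carried Vim too.

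Cdh2 (ENSMUSG00000024304, chromosome 18, 16588877 to 16809246, minus strand), which encodes the N-cadherin that replaces junction cadherins in a mesenchymal switch, was close to the limit of detection. Its 14, 43, 4 and 25 UMIs gave 1.33, 3.14, 0.616 and 2.02 CPM, and 0.161% to 1.03% of cells had a UMI. It reached 10 CPM in no library, so no difference was read from it.

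Zeb1 (ENSMUSG00000024238, chromosome 18, 5591860 to 5775467, plus strand) encodes a zinc-finger repressor of junction genes. It was at 155 CPM (147 to 163) for sham, 143 (136 to 149) for WT PNX, 118 (109 to 126) for M3cKO PNX and 132 (125 to 138) for Foxo1cKO PNX. Levels varied little, sham being highest and M3cKO PNX lowest, and no contrast reached 1.5-fold. Between 21.4% and 30.5% of cells had a Zeb1 UMI, and every endothelial class in every library was between 78.7 and 207 CPM.

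Zeb2 (ENSMUSG00000026872, chromosome 2, 44983632 to 45117395, minus strand), the related repressor, overlaps Zeb2os on the other strand. It was at 61.9 CPM (57.3 to 66.9) for sham, 92.5 (87.5 to 97.8) for WT PNX, 48.5 (43.3 to 54.2) for M3cKO PNX and 82.1 (77.2 to 87.3) for Foxo1cKO PNX. M3cKO PNX was the lowest and sham was next, with intervals that did not overlap. The ratio of WT PNX to sham was 1.49 (1.36 to 1.64), just inside the 1.5-fold line, and M3cKO PNX was 1.91-fold lower (1.68 to 2.16) than WT PNX. In general capillary-like cells the levels were 89.8, 137, 40.2 and 108 CPM, and M3cKO PNX was 3.41-fold lower (2.40 to 4.96) than WT PNX there. M3cKO PNX was called lower than WT PNX in 8 of 9 measured classes and higher in the systemic-type-like class. The ratio of M3cKO PNX to WT PNX kept its call under all 16 alternatives run.

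Snai1 (ENSMUSG00000042821, chromosome 2, 167538195 to 167542814, plus strand) encodes SNAIL, whose promoter window is printed above. It was at 4.10 CPM (2.97 to 5.52) for sham, 9.79 (8.20 to 11.6) for WT PNX, 13.9 (11.1 to 17.0) for M3cKO PNX and 11.5 (9.69 to 13.6) for Foxo1cKO PNX. Sham lay below the other 3 libraries, whose intervals overlapped each other. In WT PNX against sham it stayed below 10 CPM in both libraries and was not measured under the rule. M3cKO PNX stood 1.42-fold above WT PNX (1.07 to 1.86), the one member on the opposite side to the other 8 measured there. Venous-like cells held 44.3% of all Snai1 UMIs, at 11, 32.2, 66.3 and 37.6 CPM, and cells with a UMI were 2.60%, 11.5%, 15% and 10.0% of that class. Lymphatic-like cells were at 23.4, 38.8, 51.3 and 66.9 CPM, from 9, 12, 10 and 15 UMIs. Their level was thus above that of venous-like cells in every library but M3cKO PNX. Systemic-type-like cells were at 4.89, 32.0, 14.5 and 42.8 CPM, from 1, 25, 4 and 41 UMIs. In venous-like cells Col3a1 was lowest and Snai1 highest in the M3cKO PNX library.

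The endothelial rule left out cells with type I collagen UMIs. Cells that failed only for a Col1a1 or Col1a2 UMI were 3.34%, 9.69%, 2.54% and 6.41% of the cells that otherwise passed. Their Col3a1 was at 717, 1967, 3986 and 1221 CPM and their Fn1 at 232, 523, 971 and 335. Their Pecam1 was 0.837, 0.797, 0.595 and 0.883 of the endothelial level. These barcodes were picked for holding UMIs of both the endothelial rule's genes and type I collagen, so the presence of both is no result, and the part of fibroblast RNA in them was not tested. With them counted in, Col3a1 was at 44.3, 311, 202 and 199.7 CPM, and Foxo1cKO PNX was then below WT PNX (log2 ratio -0.64), which turns that contrast around, while the M3cKO PNX contrast shrank to a log2 ratio of -0.62. Fibroblast marker genes in the endothelial cells summed to 27.4, 50.4, 8.32 and 42.9 CPM over 10 genes, of which 7 or 8 were detected and Col1a1 and Col1a2 were at 0 by the rule, so they ran in the same order as Col3a1 except for Foxo1cKO PNX. Mural markers summed to 43.4, 32.7, 35.4 and 33.1 CPM over 12 genes with 11 or 12 detected. Some of these markers were also leading genes of endothelial clusters: Col14a1 in venous-like, Dcn in systemic-type-like and Kcnj8 in lymphatic-like cells. The sums therefore do not measure fibroblast or mural RNA alone. The part of such RNA in the results was not tested.

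Other cell types of the same libraries were read for the same genes, since free RNA gives UMIs in cells that do not express a gene. Acta2 was at 0 to 7.95 CPM in B cells and 0 to 4.23 CPM in T and NK cells, and Tagln at 0 to 4.25 and 0 to 3.18, below the endothelial level in every library. In sham few blood cells were read: B cells had 1 Acta2 UMI (0.201 to 44.3 CPM) and T and NK cells 0 (upper limit 15.3). These intervals include the endothelial Acta2 level. The sham upper limits for Tagln, at 0 UMIs, were 29.3 CPM in B cells, above the endothelial 26.5, and 15.3 in T and NK cells. Col3a1 in B and in T and NK cells was at 0 CPM in sham (upper limits 29.3 and 15.3) and at 9.86 and 8.47 in WT PNX. It was at 1.89 and 4.66 in M3cKO PNX and at 8.50 and 4.74 in Foxo1cKO PNX. In M3cKO PNX the T and NK value was 1.44 times the endothelial one and the B cell value, on 2 UMIs, 0.58 times. The endothelial Col3a1 of that library is thus at the level of background. Fn1 was at 130 and 70.9 CPM in B and in T and NK cells of WT PNX and at 78.3 and 36.4 in M3cKO PNX, above the endothelial level in both libraries. It was 0 and 4.14 in sham and 8.50 and 21.2 in Foxo1cKO PNX, below the endothelial level. Few blood cells carried it: 13 of 576 B cells and 12 of 784 T and NK cells in WT PNX, and 10 of 267 B cells and 31 of 1352 T and NK cells in M3cKO PNX. Fibroblasts of these libraries (14 to 71 cells) were at 7432 to 13337 CPM for Col3a1 and 662 to 3056 for Acta2.

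**Figure D4:**
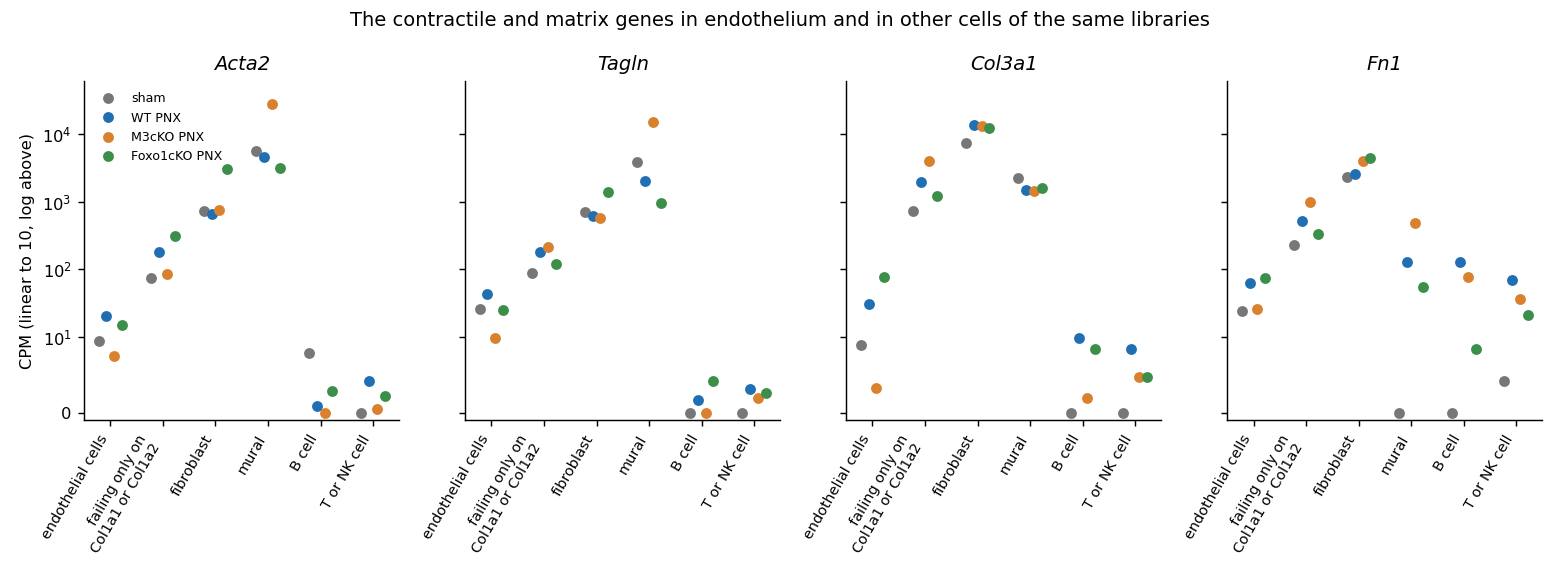
Level of Acta2, Tagln, Col3a1 and Fn1 (CPM, axis linear to 10 and logarithmic above) in endothelial cells, in cells that failed only on type I collagen, and in fibroblasts, mural cells, B cells and T or NK cells; each point is 1 library, without error bars. Acta2 and Tagln are lower in the blood cells than in endothelium of the same library (in sham on 0 or 1 UMI), and Fn1 lies above endothelium in the WT PNX and M3cKO PNX blood cells.

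Depth differed between libraries, so shares of cells were recomputed with every cell thinned to 2000 UMIs, which left out 2654, 1147, 1197 and 1275 shallower cells. Acta2 was then in 0.845%, 1.5%, 0.309% and 1.66% of cells, Col3a1 in 1.19%, 2.81%, 0.618% and 3.15%, Fn1 in 3.13%, 5.77%, 2.70% and 6.90%, and Zeb2 in 9.90%, 15%, 9.20% and 13.6%. WT PNX stayed above sham and M3cKO PNX for these 4 genes. Zeb1 was in 25.2%, 21.1%, 18.8% and 20.8% of thinned cells, with sham highest, where the unthinned shares had WT PNX highest. Of 204 thinned WT PNX B cells, which should lack these genes, 0 had a UMI of Acta2 and 0 of Tagln (exact binomial upper limit 1.79%). This limit is above the 1.5% of endothelial cells for Acta2, so it does not set the 2 cell types apart for that gene. For Tagln the endothelial share was 2.70%. Col3a1 was in 1.96% of the B cells (0.537 to 4.94), an interval that includes the endothelial share, and Fn1 in 2.45% (0.801 to 5.63). Of 489 thinned WT PNX T and NK cells, 0.409% had an Acta2 UMI (0.0496 to 1.47) and 0.2045% a Tagln UMI (0.00518 to 1.13). Col3a1 was in 1.23% of these (0.452 to 2.65) and Fn1 in 1.43% (0.577 to 2.93). Their Acta2 and Col3a1 intervals overlapped the endothelial ones, and those of Tagln and Fn1 lay below. In M3cKO PNX, 4.44% of thinned B cells had an Fn1 UMI (1.65 to 9.42), above the 2.70% of endothelial cells, and 1.49% of thinned T and NK cells (0.855 to 2.41), below it. Endothelial Fn1 of that library was uneven between classes all the same, at 349 CPM in lymphatic-like and 250.3 in arterial-like cells and 1.11 in aerocyte-like cells.

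Genes of the same programme were read from 6 lists. The lists, too, were chosen with earlier results of these data known, so their counts are no test. Over all measured genes, 11.3% were called higher and 6.98% lower in WT PNX against sham. In M3cKO PNX against WT PNX 6.37% were higher and 14.4% lower, and in Foxo1cKO PNX against WT PNX 1.09% and 1.39%. Col1a1 and Col1a2, both in the matrix list, were at 0 by the cell rule and could not be measured. Of the 20 mesenchymal matrix genes, 12 were measured in WT PNX against sham and 7 were called higher and 0 lower (median log2 0.80), among them Eln, the elastin gene, at 177 and 798 CPM, and Fbln2 at 52.4 and 142. In M3cKO PNX against WT PNX, 6 of 13 were lower and 1 higher (median -0.52), with Fbn1 at 46.1 and 11.1 CPM, Col5a2 at 70.7 and 21.1 and Fbln2 at 142 and 43.7. In Foxo1cKO PNX against WT PNX 0 were higher and 1 lower of 12 (median -0.03). Like Col3a1 and Fn1, most called genes of this list were higher in the first contrast and lower in the second.

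Of the 15 contractile and cytoskeletal genes, 9 were measured and 3 were higher in WT PNX than in sham (median 0.30). These were Myl9, a myosin light chain, at 8.10 and 35.1 CPM, Cald1, caldesmon, at 176 and 274, and Flna, filamin, at 132 and 207. Of the Myl9 UMIs, 38.8% in sham and 73.1% in WT PNX lay in the clusters of other cell types. Of the 8 further transition transcription factors, 2 were measured in WT PNX against sham: Klf4 was 1.5-fold lower, at 2398 and 1598 CPM, and Tcf4 was at 731 and 606. Snai2, Twist1, Twist2 and Prrx1 were below 10 CPM in both libraries.

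Of the 15 migration and S100 genes 13 were measured, with 4 higher and 1 lower (median 0.34), and of the 16 transforming growth factor beta genes 14, with 2 higher and 3 lower (median 0.07). Over all genes of this contrast 11.3% were higher and 6.98% lower. Eng, endoglin, a coreceptor of that pathway, was at 1000 CPM in sham and 560 in WT PNX. Il1b, an inflammatory inducer, was 85.4 in sham and 6.28 in WT PNX, but 95.9% of its sham UMIs lay in the clusters of other cell types. Of the 14 endothelial identity genes, 1 was higher and 1 lower in WT PNX against sham (median -0.14), Nos3 at 67.0 and 101 CPM and Cldn5, the tight-junction claudin, at 1717 and 824. Cdh5, VE-cadherin, was at 2515, 2127, 2121 and 2445 CPM and Pecam1 at 3295, 2856, 3353 and 3076. Both, with Tie1 and Cldn5, belong to the rule that chose the cells, so cells without them were not measured.

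In M3cKO PNX against WT PNX, the contractile list had 0 higher and 1 lower of 9, Cald1 at 155 and 274 CPM, and the migration list 2 higher and 1 lower of 14, among them S100a4 at 23.7 and 7.74 and S100a10 at 544 and 354. The growth factor list had 1 higher and 2 lower of 15: Il1b at 122 and 6.28 CPM, with 96.5% of its M3cKO PNX UMIs in the clusters of other cell types, Bmpr2, a BMP receptor, at 662 and 1087, and Il1r1 at 31.0 and 51.6. Of the identity genes 1 of 14 was lower, Kdr, the main VEGF receptor, at 751 and 1228 CPM. In Foxo1cKO PNX against WT PNX the calls were Myl9 lower in the contractile list, S100a4 and Il1b higher in the migration and growth factor lists, and 0 of 14 identity genes. Over all genes, 6.37% were higher and 14.4% lower in the M3cKO PNX contrast and 1.09% and 1.39% in the Foxo1cKO PNX contrast, so 1 or 2 lower genes in lists of 9 to 15 are near the M3cKO PNX background. None of the measured transition factors was called in either knockout contrast. Without the clusters of other cell types, S100a4 was at 1.30, 4.13, 7.74 and 11.2 CPM (libraries in the order above), so its M3cKO PNX call ends. Myl9 was then at 10.2 and 4.69 CPM in WT PNX and Foxo1cKO PNX, and Il1b at 2.22 to 4.71 CPM in every library, under the minimum level for a call.

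Over 38 class and library units of at least 50 cells, the genes whose level ran most like each member were read from 8816 genes as Pearson correlations of log2 levels, a description with no test. Fn1 ran most like Fbn1 (r = 0.93), Thsd7a and Fbln5 (both 0.91), and Col3a1 most like Smoc1 (0.88), Baalc and Mmp16. Acta2 ran most like Plek2 (0.88), Lox and Dkk2, Tagln most like Tmem255b and C1qtnf9 (both 0.88), S100a6 most like Mall (0.95), Zeb2 most like Pde3a and Samd12 (both 0.92), and Snai1 most like Hdlbp, Oaf and Nr2f2 (0.81 each). Units of 1 library share their depth and processing, and units of 1 class their markers. Vim ran most like Gapdh (0.89), Zeb1 most like Nos2 (0.70) and Cdh2 most like Car8 (0.70).

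The contractile and matrix genes shared few cells. Acta2 and Tagln were together in 9, 18, 4 and 13 cells, where the product of their shares gives 0.587, 2.65, 0.188 and 1.97, and Col3a1 and Fn1 in 9, 28, 0 and 46 cells, where it gives 1.34, 10.8, 0.565 and 10.7. Acta2 and Col3a1, one contractile and one matrix readout, were together in 1, 4, 0 and 4 cells, against 0.412, 2.74, 0.101 and 2.92. The widely detected genes met more often: Zeb1 and Zeb2 were together in 189, 363, 81 and 278 cells, where the product gives 134, 264, 51.8 and 199, and Vim and S100a6 in 202, 365, 146 and 401 cells, where it gives 198, 357, 140 and 387. Cells with Acta2 were deeper than those without, at medians of 4286 and 2613 UMIs in WT PNX, and the part of depth in these counts was not tested.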

How the data were processed

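The deposited files are whole-number UMI counts per gene and cell barcode, made with Cell Ranger 2.1.1 against mm10, per the labels' protocols; the file headers name software version 3.0.0, and the submitters' processing notes also list R 3.4.4. The authors' counts were used as deposited. Cells were filtered and called endothelial by the rule given above, UMIs were summed over the cells of a library or class, and CPM were taken over these sums. Cells were clustered with scanpy 1.11.5 (Leiden, resolution 1.0, 2000 variable genes, 30 components) without the 10 members and the list genes that mark no class. No doublet caller was applied in the main values; a Scrublet alternative was run. The calling rule was run on simulated Poisson counts of genes at 20 CPM or more: 100 of 100 genes changed 2.5-fold were called in each comparison. The intervals held the set ratio for 96%, 95% and 91.5% of the changed genes. Simulated counts do not clump in single cells as those of Acta2, Tagln and Col3a1 do. The run therefore does not bear on the calls of the members. The named list genes are those with the largest log2 ratio at 20 CPM or more, at most 3 per list and comparison. Members and lists were chosen with earlier results of these data known. Promoters came from RefSeq, GRCm38.p6. edgeR 4.0.16 gave TMM factors for an alternative.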

Additional observations from a re-analysis of the deposited data

How the results depend on the processing

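Of 479 log2 ratios of members recomputed under 16 alternatives, 348 stayed within the counting interval of the value given and 122 moved beyond it. The other 9 changed sign, counted only for members called in the main setting. Sign changes of members not called there are among the 348 and the 122. For Acta2 in Foxo1cKO PNX against WT PNX only 7 of 16 alternatives kept the sign, with log2 ratios from -1.76 to 0.99. The 5 members higher in WT PNX than in sham became 3 when cells with a mural UMI were left out, 3 in male-type cells alone, 3 after thinning, 3 with the mean over cells, 3 without the WT PNX cell richest in Acta2 (an alternative chosen after seeing the data, like the one without clusters of other cell types) and 2 in general capillary cells alone. The 6 members lower in M3cKO PNX became 2 in general capillary cells alone, and 1 was higher with TMM factors and 1 with classes weighted to WT PNX, in both Snai1. The 1 member higher in Foxo1cKO PNX became 0 with Col1a1 and Col1a2 UMIs allowed and 4 in male-type cells alone. The 1 member lower became 2 with those UMIs allowed, 2 with at most 5% mitochondrial UMIs, 2 with no minimum level, 0 in general capillary cells alone, 0 in male-type cells alone and 0 without the WT PNX cell richest in Acta2. For WT PNX against sham, Tagln changed sign to -0.51 with at most 5% mitochondrial UMIs, -0.29 in general capillary cells and -0.52 with classes weighted. For M3cKO PNX against WT PNX, S100a6 changed sign to 0.084 in general capillary cells and 0.047 in male-type cells. For Foxo1cKO PNX against WT PNX, Tagln changed sign to 2.08 in general capillary cells and 0.26 in male-type cells, and Col3a1 to -0.64 with Col1a1 and Col1a2 UMIs allowed and -0.53 in general capillary cells. General capillary cells hold few UMIs of Acta2, Tagln and Col3a1, so these values rest on small counts; for the others the cause was not tested. No paired analysis was possible because each group is 1 library.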
